A study of Mus musculus with 4 samples.

Results

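Genes of lipid droplet and fatty acid handling were examined in neutrophils from tumors and from blood. The 10 genes, of 18894 in the files, were chosen by name for their roles, with earlier results of these data known. They were Hilpda, Plin2, G0s2, Dgat1 and Dgat2 for storage, Pnpla2 for lipolysis, Acsl1 and Acsl4 for fatty acid activation, and Cd36 and Fabp5 for uptake and binding. All 10 were found. In the tumor neutrophils the 5 storage genes stood above their level in blood neutrophils, Hilpda, G0s2 and Plin2 by the widest margins, and Acsl4 rose. The tumor levels of Dgat1 and Acsl4 did not stand clear of RNA outside cells, and how far such RNA enters their differences was not tested. Pnpla2 and Acsl1 did not pass the test, and Fabp5 fell by a call that several alternatives did not keep.

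Neutral fat is stored in cells as lipid droplets, a core of triglyceride and sterol ester under a coat of proteins. DGAT enzymes make the triglyceride, perilipins such as PLIN2 coat the droplet, and the lipase ATGL, encoded by Pnpla2, starts its breakdown. HILPDA and G0S2 are small proteins that bind and inhibit ATGL. Acyl-CoA synthetases couple free fatty acids to coenzyme A, which commits them to storage, membranes or oxidation.

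The neutrophils came from 3 mice of the FVB inbred strain that had been injected with cells of the line Py7160 and had received no treatment. Tumors were taken 2 to 3 weeks later at a diameter of about 1 cm and digested with enzymes, and blood of the same mice had its red cells lysed. Cells were enriched on Ly6G to about 90%, stained with 1 hashtag antibody per mouse, pooled by tissue and sorted on CD11b and Ly6G to a stated purity above 99%. Each tissue was then 1 Drop-seq RNA library, a droplet method that counts RNA molecules as UMIs, with 1 hashtag library, so that tissue, library and the way the cells were released cannot be told apart.

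After assignment by hashtag, mice 1, 2 and 3 had 106, 564 and 171 tumor cells with 70612, 385370 and 116862 UMIs, and 511, 456 and 408 blood cells with 436713, 380059 and 330296 UMIs. The median cell held 570 to 586 UMIs in the tumor mice and 647.5 to 671 in the blood mice. Levels are given as CPM, UMIs of a gene per 1000000 UMIs of all genes in the summed cells of a mouse. A UMI stands for 1 captured molecule, so CPM of different genes can be set side by side without a length correction. The 8 neutrophil markers were detected in both tissues and summed to 69706 to 83644 CPM in tumor, against 178528 to 206205 CPM in blood. Markers of monocytes and macrophages summed to 312, 1957 and 2131 CPM in tumor mice 1, 2 and 3, with 12 of 12 detected, against 231 to 321 CPM in blood, with 4 detected. MHC class II markers summed to 156 to 2854 CPM in tumor, against 37 to 133 CPM in blood. Erythroid markers were at 0 in tumor and at 13960 to 22162 CPM in blood. No barcode with at least 200 genes occurred in both libraries.

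The tumor hashtag library stood apart. Its barcodes that passed the limits on genes and mitochondrial UMIs held a median of 855 counts of hashtag 2, against 16 and 26 of hashtags 1 and 3, while the blood medians were 57.5, 91 and 37. Of the 564 tumor cells given to mouse 2, a second method (HTODemux) gave 243 to mouse 2, 22 to mouse 1 and 13 to mouse 3, called 56 doublets and gave 230 no hashtag. Without tumor mouse 2 the log2 fold changes described next were 10.69 for Hilpda, 3.85 for Plin2, 4.72 for G0s2, 1.72 for Dgat1, 1.08 for Dgat2 and 2.25 for Acsl4, all with an edgeR adjusted p under 0.05.

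Of the 10 genes, 9 passed the low-count filter and were tested between 3 tumor and 3 blood sums (edgeR's quasi-likelihood test, Benjamini-Hochberg adjustment over 3674 genes, threshold 0.05). Of these, 6 rose and 1 fell in tumor, where among all genes tested 30.2% rose and 29.8% fell. The tissues' mice did not overlap for 8 of the 10, 7 of them higher and 1 lower in tumor. Of all genes tested 63.0% did not overlap, 29.8% with tumor higher and 33.2% with tumor lower. Hilpda, G0s2 and Acsl4 reached the filter through their tumor level alone. That favours genes that are higher in tumor, and these counts are given as a description. The p-values measure the spread between mice within 1 library per tissue.

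**Figure D1:**
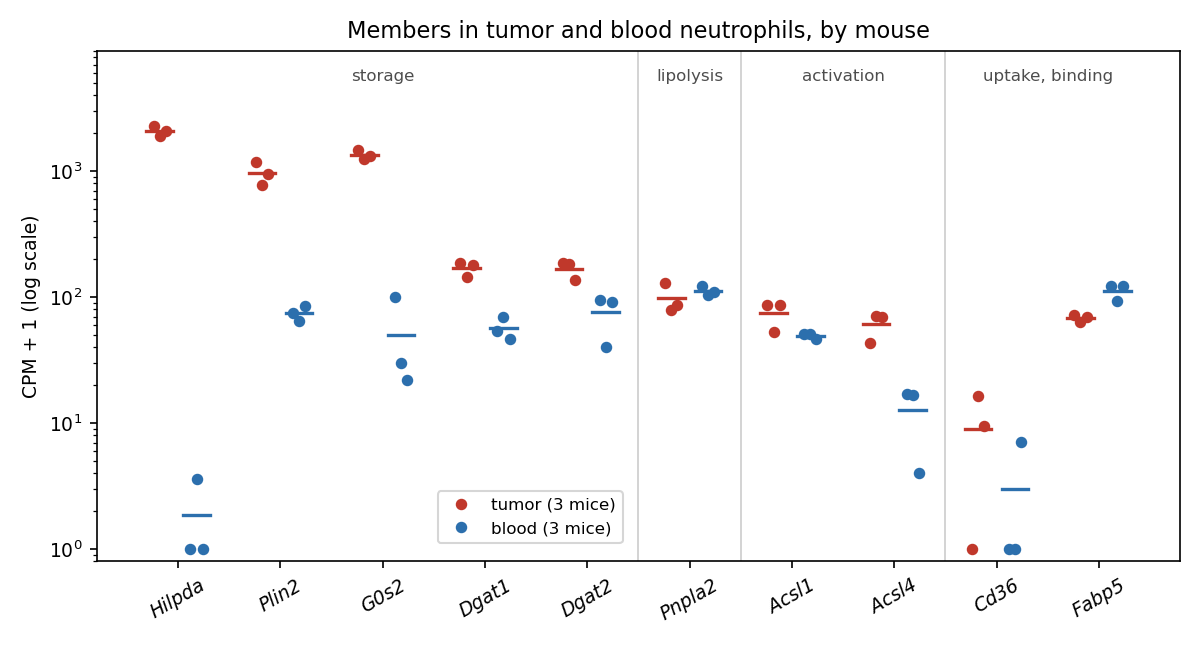
Level of each gene in the summed neutrophils of each mouse, as CPM + 1 on a log scale, with tumor left of blood and 1 point per mouse; the short line is the mean of 3 mice. Hilpda, Plin2 and G0s2 in tumor lie between 773 and 2280 CPM, above every blood value, whereas Pnpla2 overlaps between the tissues and Fabp5 is lower in tumor.

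Hilpda, whose product is induced by hypoxia and binds ATGL at the droplet, was the most abundant of the 10 in tumor and nearly undetected in blood. It is a protein-coding gene at chr6:29272488-29275446 on the plus strand (mm10, GENCODE annotation). Hilpda had 2280, 1879 and 2088 CPM in the tumor neutrophils of mice 1, 2 and 3, against 0, 2.63 and 0 CPM in blood neutrophils. Every tumor mouse was thus far above every blood mouse. The sums rested on 1129 UMIs in tumor and 1 UMI in blood, a ratio of 2261 with a 95% interval of 405 to 89372 that covers counting error only (edgeR adjusted p = 1.32e-14). Without blood mouse 2 no blood UMI was left, and Hilpda was at least 504-fold higher in tumor, set against 3 counts over the remaining blood cells. The fitted log2 fold change, 10.64 with all sums, was 10.02 without blood mouse 1 and 12.06 without blood mouse 2. By the size of the fitted change Hilpda ranked 3 of 3674 genes. Hilpda passed the low-count filter through tumor alone and its fitted size rests on 1 blood UMI, so its rank and p-value are descriptions only.

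G0s2, which encodes another inhibitor of ATGL, stood second in tumor. It lies at chr1:193272161-193273217 on the minus strand and overlaps Lamb3 on the opposite strand. The counting is not stated to use strand, but Lamb3 had 15 UMIs in tumor and 2 in blood. G0s2 had 1459, 1253 and 1309 CPM in tumor, against 98.5, 28.9 and 21.2 CPM in blood. The tissues did not overlap, and among blood samples mouse 1 stood well above the others. G0s2 rose by 4.67 ± 0.29 on the log2 scale (SE, edgeR adjusted p = 4.19e-10), on 739 UMIs in tumor and 61 in blood. Without blood mouse 1, which held 43 of the 61, the log2 fold change was 5.61.

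Plin2 encodes perilipin 2, the droplet coat protein found in most cell types. It lies at chr4:86648386-86670060 on the minus strand. Plin2 had 1175, 773 and 950 CPM in tumor, against 73.3, 63.1 and 84.8 CPM in blood. Every tumor mouse was above every blood mouse, by a gap much wider than the spread within either tissue. The log2 fold change was 3.68 ± 0.19 (SE, edgeR adjusted p = 3.01e-11), on 492 and 84 UMIs. Unlike Hilpda, Plin2 had UMIs in blood in all 3 mice. Its blood level did not stand above RNA outside cells, at 73.2 CPM in summed blood cells and 68.8 CPM in blood barcodes with 20 to 60 UMIs.

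The start regions of the genes were read from RefSeq because the members' levels diverged: 7 of the 10 genes had an entry, with 9 windows, and Dgat1, Dgat2 and Fabp5 had none. Each window is the 250 bases before an annotated start on build GRCm38.p6, written 5′ to 3′ on the gene's strand. Capitals mark 2 motifs searched on both strands, ACGTG, the core of the element that hypoxia-inducible factors bind, and the variant GCGTG. Of 32851 such mouse windows, 16.6% held ACGTG and 28.2% held GCGTG. The window before the second Hilpda start, chr6:29272376-29272625, held 1 ACGTG and 2 GCGTG, and the windows of Plin2 (chr4:86670060-86670309) and G0s2 (chr1:193273189-193273438) held 1 GCGTG each, that of Plin2 on the opposite strand and so printed as CACGC. The window of Pnpla2 (chr7:141454938-141455187) is shown for contrast and held none.
Hilpda: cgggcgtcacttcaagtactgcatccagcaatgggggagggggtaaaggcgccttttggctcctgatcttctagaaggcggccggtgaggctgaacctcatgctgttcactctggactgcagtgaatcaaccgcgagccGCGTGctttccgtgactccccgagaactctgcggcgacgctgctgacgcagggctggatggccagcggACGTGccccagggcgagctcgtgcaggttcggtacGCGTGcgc
Plin2: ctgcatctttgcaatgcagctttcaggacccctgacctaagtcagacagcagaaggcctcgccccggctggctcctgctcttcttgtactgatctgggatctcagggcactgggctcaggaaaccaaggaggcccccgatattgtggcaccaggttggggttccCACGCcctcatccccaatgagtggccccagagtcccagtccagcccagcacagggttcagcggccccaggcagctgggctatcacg
G0s2: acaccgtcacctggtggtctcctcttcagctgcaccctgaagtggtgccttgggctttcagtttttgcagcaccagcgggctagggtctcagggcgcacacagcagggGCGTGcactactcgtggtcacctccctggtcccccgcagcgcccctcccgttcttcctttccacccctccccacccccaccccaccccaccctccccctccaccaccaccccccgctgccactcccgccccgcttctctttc
Pnpla2: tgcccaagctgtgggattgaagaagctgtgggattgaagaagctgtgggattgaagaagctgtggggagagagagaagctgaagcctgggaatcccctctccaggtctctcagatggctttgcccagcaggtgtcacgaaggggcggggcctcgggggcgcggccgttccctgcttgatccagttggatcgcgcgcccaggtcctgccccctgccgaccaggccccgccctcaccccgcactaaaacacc
The ACGTG of Hilpda began 43 bases before the start. Of the other windows, the first of Acsl1 and that of Acsl4 held 1 GCGTG each, and the first of Hilpda, the second of Acsl1 and that of Cd36 held neither motif. A match describes the letters of a window and not binding.

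The triglyceride synthases were higher in tumor by a smaller step. Dgat1 and Dgat2 encode unrelated enzymes that both add the last fatty acid to diacylglycerol. Dgat1 (chr15:76502015-76511953, minus strand) had 184, 143 and 180 CPM in tumor, against 52.7, 68.4 and 45.4 CPM in blood, and rose by 1.54 ± 0.25 on the log2 scale (SE, edgeR adjusted p = 6.18e-05). Dgat2 (chr7:99153658-99182719, minus strand) had 184, 182 and 137 CPM in tumor, against 93.9, 39.5 and 90.8 CPM in blood, and rose by 1.23 ± 0.29 (SE, edgeR adjusted p = 0.0014). Neither gene overlapped between the tissues, although blood mouse 2 had far less Dgat2 than the other blood mice. Without blood mouse 2 the log2 fold change of Dgat2 was 0.79 (edgeR adjusted p = 0.0123). In the summed tumor cells the levels of Dgat1 and Dgat2 lay within each other's counting intervals, at 155 CPM (95% Poisson interval 125 to 191) and 173 CPM (140 to 210).

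For the lipase gene Pnpla2 no difference was detected. Pnpla2 (chr7:141455198-141460743, plus strand), which encodes ATGL, had 127, 77.8 and 85.6 CPM in tumor, against 121, 103 and 109 CPM in blood. The tissues overlapped, with the highest value in tumor mouse 1 and the other tumor mice below all blood mice. The log2 fold change of −0.31 ± 0.25 did not pass (SE, edgeR adjusted p = 0.30), on 49 UMIs in tumor and 128 in blood. The ratio of the summed CPM was 0.767, and its 95% counting interval of 0.540 to 1.07 includes no difference. The genes of the next lipases of the pathway, named here after their values had been seen, did not reach the low-count filter. Mgll had 3 UMIs in tumor and 48 in blood, a ratio of 0.125 with a counting interval of 0.0249 to 0.388. Lipe had 1 UMI in tumor and 19 in blood, a ratio of 0.105 with an interval of 0.00254 to 0.663. All tumor UMIs of both genes were in mouse 2, and no tumor mouse reached a blood mouse for either.

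The acyl-CoA synthetases differed from each other. Acsl1 (chr8:46471037-46536051, plus strand), which activates long-chain fatty acids for storage or oxidation, had 85.0, 51.9 and 85.6 CPM in tumor, against 50.4, 49.99 and 45.4 CPM in blood. Its tissues did not overlap, by a margin of 51.9 in tumor mouse 2 to 50.4 in blood mouse 1, and the log2 fold change of 0.45 ± 0.33 did not pass (SE, edgeR adjusted p = 0.255). Acsl4 (chrX:142317993-142390535, minus strand), which prefers arachidonic acid, had 42.5, 70.1 and 68.5 CPM in tumor, against 16.0, 15.8 and 3.03 CPM in blood. All tumor mice were above all blood mice, and Acsl4 rose by 2.43 ± 0.45 (SE, edgeR adjusted p = 1.79e-04), on 38 and 14 UMIs. Of the 38 tumor UMIs, 12 (31.6%) lay in 70 tumor cells with at least 2 UMIs of macrophage or MHC class II markers, which held 12.2% of all tumor UMIs, and without those cells in either tissue the log2 fold change was 2.07.

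Uptake and binding genes were low. Fabp5 (chr3:10012548-10016607, plus strand), a carrier of fatty acids in the cytoplasm, had 70.8, 62.3 and 68.5 CPM in tumor, against 121, 92.1 and 121 CPM in blood. No tumor mouse reached a blood mouse, and Fabp5 fell by 0.73 on the log2 scale, with an SE of 0.27 (edgeR adjusted p = 0.0263), on 37 and 128 UMIs. That call did not hold under HTODemux assignment (−0.39, adjusted p = 0.270) or without tumor mouse 2 (−0.65, adjusted p = 0.190). Cd36 (chr5:17781690-17888801, minus strand), a scavenger receptor that takes up fatty acids, had 0, 15.6 and 8.56 CPM in tumor, against 0, 0 and 6.06 CPM in blood, and the filter on low counts removed it. The ratio on 7 and 2 UMIs was 7.01 with a counting interval of 1.33 to 69.1, the tissues overlapped, and 5 of the 7 tumor UMIs lay in the cells with macrophage or MHC class II markers.

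**Figure D2:**
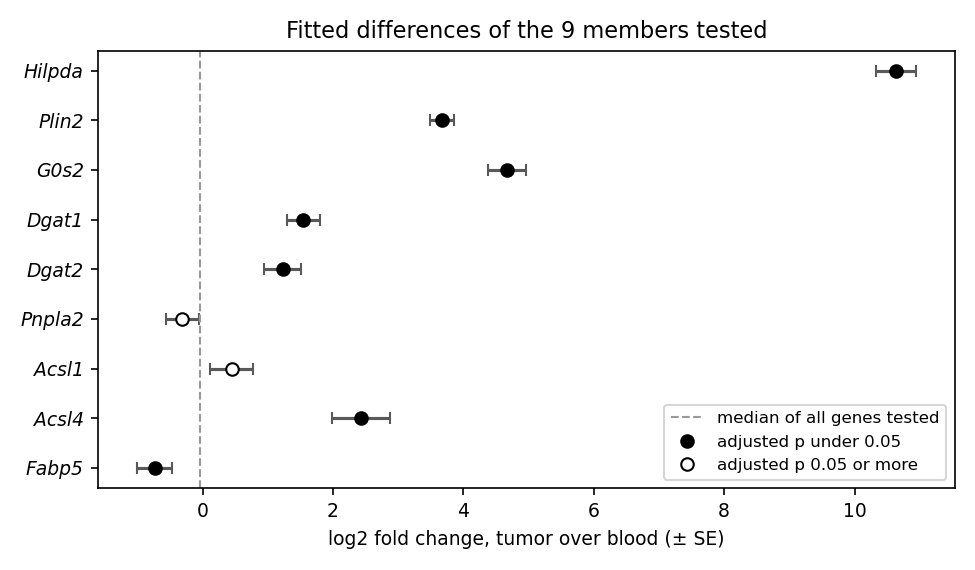
Fitted log2 fold change of tumor over blood for the 9 tested genes, from edgeR, with 1 SE derived from its F statistic. Filled points passed at an adjusted p under 0.05 and open points did not. The dashed line is the median of all 3674 genes tested, −0.04. The SE of Hilpda was 0.30 here and 1.19 with the DESeq2 Wald test. The change of Hilpda rests on 1 blood UMI and its fitted size depends on that count, while Pnpla2 and Acsl1 lie within 2 SE of 0.

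By role, the storage sums lay much further apart between the tissues than the sums of lipolysis and activation genes. The 5 storage genes summed to 5282, 4230 and 4664 CPM in tumor, against 318, 203 and 242 CPM in blood. Pnpla2, Acsl1 and Acsl4 together summed to 255, 200 and 240 CPM in tumor, against 188, 168 and 157 CPM in blood. That sum too was higher in every tumor mouse, and its activation genes, Acsl1 and Acsl4, summed to 127, 122 and 154 CPM in tumor, against 66.4, 65.8 and 48.4 CPM in blood. Storage was thus many times the lipolysis and activation sum in every tumor mouse and close to it in blood.

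The ratio of these sums was 20.5 ± 0.88 in tumor and 1.48 ± 0.25 in blood (SD, n = 3 mice each). Without Hilpda it was 11.4 ± 0.59 in tumor and 1.47 ± 0.26 in blood (SD, n = 3 mice each). In tumor Acsl1 and Acsl4 held 134 of the mean 231 CPM of the divisor. Neither stood clear of RNA outside cells in tumor, as given below. How far that RNA enters the ratio and the activation sums was not tested. For the pair of inhibitor and lipase, G0s2 per Pnpla2 was 11.4, 16.1 and 15.3 in tumor, against 0.81, 0.28 and 0.19 in blood. Hilpda per Pnpla2 was 17.9, 24.1 and 24.4 in tumor, against 0, 0.03 and 0 in blood. The synthases gave a smaller contrast, with Dgat1 and Dgat2 together per Pnpla2 at 2.89, 4.17 and 3.70 in tumor, against 1.21, 1.05 and 1.25 in blood. The groups did not overlap for any of these ratios, which describe RNA of genes chosen with their direction known and were not tested.

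**Figure D3:**
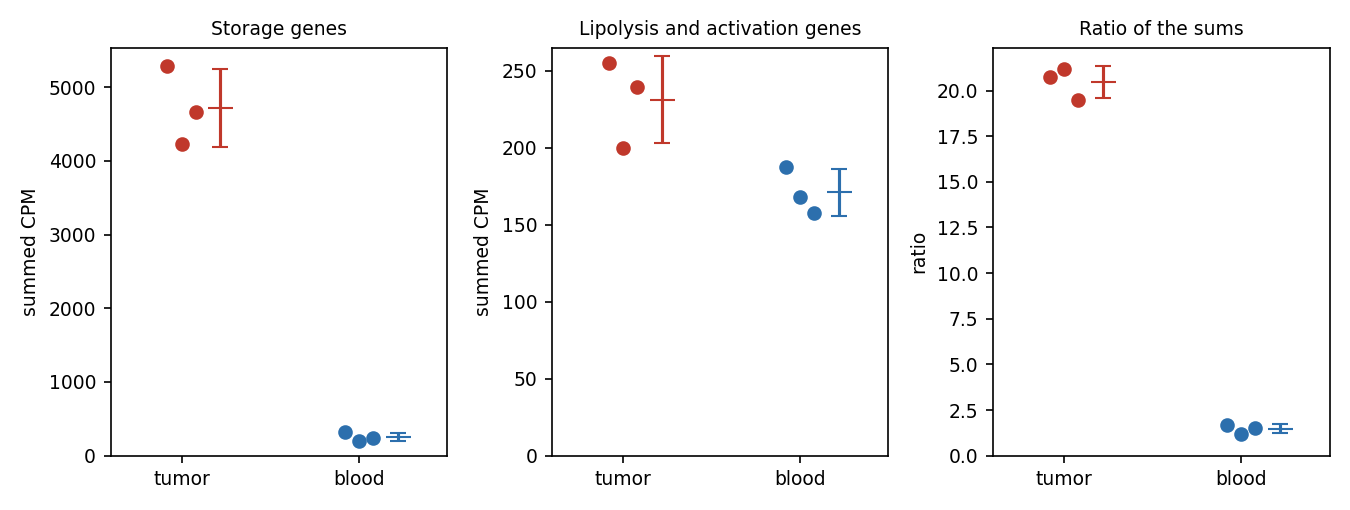
Summed CPM of the storage genes (left) and of the lipolysis and activation genes (middle), and the ratio of the sums (right), with 1 point per mouse, tumor left of blood, and the mean and SD of 3 mice beside the points; each axis starts at 0. The storage sums lie at 4230 to 5282 CPM in tumor, against 203 to 318 CPM in blood, and the other sums at 200 to 255 and 157 to 188 CPM. Acsl1 and Acsl4, part of the middle sums, did not stand clear of RNA outside cells in tumor.

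The share of cells with a UMI was compared after thinning every cell to 441 UMIs, which kept 632 tumor and 1121 blood cells. A Hilpda UMI was expected in 44.4%, 35.2% and 39.4% of tumor cells of mice 1, 2 and 3, against 0%, 0.0934% and 0% of blood cells. For Plin2 the shares were 37.1%, 24.7% and 27.5% in tumor, against 2.54%, 2.95% and 3.64% in blood. For G0s2 they were 24.4%, 24.7% and 25.9% in tumor, against 2.95%, 1.23% and 0.757% in blood.

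All 3 shares, and those of Dgat1, Dgat2, Acsl4 and Fabp5, reached p = 0.1 in an exact two-sided permutation test, the least that a design of 3 against 3 can give, and 0.143 after adjustment over 10 genes. Pnpla2 was at 3.89% ± 0.98 in tumor and 4.86% ± 0.52 in blood (SD, n = 3 mice each, exact permutation p = 0.3), Acsl1 at 2.73% ± 0.75 and 1.96% ± 0.27 (p = 0.2) and Cd36 at 0.194% ± 0.335 and 0.0949% ± 0.164 (p = 1). In cells at full depth, Hilpda was seen in 358 of 841 in tumor and 1 of 1375 in blood, Plin2 in 276 and 80, and G0s2 in 219 and 52.

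Within the tumor cells the 3 leading genes were spread differently. The tenth of tumor cells richest in each gene held 51.6% of the Hilpda UMIs, 55.7% of the Plin2 UMIs and 75.4% of the G0s2 UMIs. A single cell reached 20 Hilpda, 14 Plin2 and 26 G0s2 UMIs. At least 3 UMIs were found in 165 cells for Hilpda, 51 for Plin2 and 87 for G0s2, and in blood in 0, 1 and 2 cells. G0s2 was therefore the most concentrated of the 3.

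RNA outside cells was estimated from barcodes with 20 to 60 UMIs, since the sort holds no cell type that should lack these genes. These barcodes were defined by their UMI count alone. They may also hold damaged cells or cells with little RNA, which was not tested, and the term RNA outside cells refers throughout to them. The summed tumor cells held Hilpda at 1971 CPM (exact Poisson interval at 95%, 1858 to 2089) and such tumor barcodes at 470 CPM (392 to 560). The cells held G0s2 at 1290 CPM, against 287 CPM in the barcodes, and Plin2 at 859 CPM, against 455 CPM. Cells were thus richer than RNA outside them for all 3. A cell made wholly of this RNA would hold a Hilpda UMI at 441 UMIs in 18.7% of cases, a Plin2 UMI in 18.2% and a G0s2 UMI in 11.9%, all below the shares seen.

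For Acsl4, Acsl1 and Dgat1 the tumor cells did not stand clear of RNA outside them. Acsl4 stood at 66.3 CPM in tumor cells (46.9 to 91.1) and 63.4 CPM in those barcodes (36.9 to 102), and its share of 2.20% of tumor cells lay below the 2.76% that such RNA alone would give. Acsl1 stood at 62.8 CPM in tumor cells and 108 CPM in the barcodes, with a share of 2.73% against 4.66%. In blood Acsl1 was also lower in cells, at 48.8 CPM, than in the barcodes, at 72.9 CPM. Dgat1 was at 155 CPM in tumor cells and 142 CPM in the barcodes, with a share of 6.74% against 6.06%. The shares of Acsl1 and Acsl4 are read as no more than background, and how far RNA outside cells enters the tissue differences of Acsl4 and Dgat1 was not tested. Dgat2 was higher in tumor cells, at 173 CPM (140 to 210), than in the barcodes, at 48.5 CPM (25.8 to 82.9). The intervals overlapped for Pnpla2, at 85.5 CPM (63.3 to 113) in tumor cells and 41.0 CPM (20.5 to 73.4) in the barcodes. They also overlapped for Fabp5, at 64.6 CPM (45.5 to 89.0) and 26.1 CPM (10.5 to 53.8). Overlap of intervals is not a test, and both genes were higher in the cells. Their shares of tumor cells, 3.89% for Pnpla2 and 2.28% for Fabp5, lay above the 1.79% and 1.15% that such RNA alone would give. In blood Plin2 was at 73.2 CPM in cells and 68.8 CPM in the barcodes, so Plin2 in blood cells did not stand above RNA outside them.

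**Figure D4:**
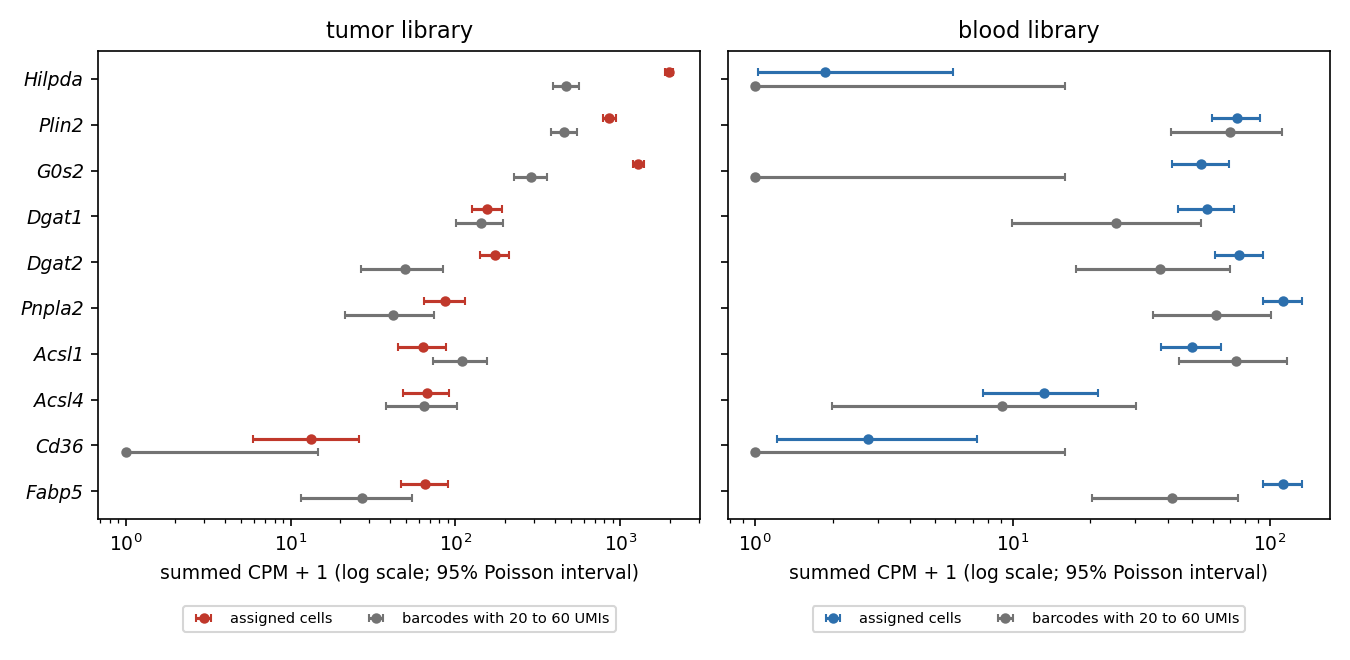
Summed CPM + 1 (log scale) of each gene in assigned cells and in barcodes with 20 to 60 UMIs, for the tumor library (left) and the blood library (right), with exact 95% Poisson intervals that cover counting error only. In tumor Hilpda, Plin2 and G0s2 are higher in cells, as is Dgat2, whereas the intervals of Dgat1, Acsl1, Acsl4, Pnpla2 and Fabp5 overlap.

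Cells with macrophage or MHC class II markers held a small part of the leading genes' UMIs. The 70 such tumor cells (7, 51 and 12 in mice 1, 2 and 3) held 7.44% of the Hilpda, 6.10% of the Plin2 and 10.7% of the G0s2 UMIs, with 12.2% of all UMIs. Hilpda stood at 1200 CPM in them and 2078 CPM in the other tumor cells. Among tumor cells, the 80 with 500 genes or more had Hilpda at 1119 CPM, G0s2 at 1368 CPM and Plin2 at 716 CPM. The 446 with fewer than 300 genes had the same genes at 2072, 1103 and 826 CPM, so that Hilpda was higher per UMI in cells with few genes and G0s2 was not.

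In all 3 tumor mice the share of cells with a G0s2 UMI was lower among cells with a Hilpda UMI than among the rest. At 441 UMIs per cell, a G0s2 UMI was expected in 10.2%, 17.5% and 18.5% of cells with a Hilpda UMI in mice 1, 2 and 3, and in 35.7%, 28.5% and 30.8% of cells without one. The direction was the same in 3 of 3 mice under HTODemux assignment and without the cells with macrophage or MHC class II markers. A Plin2 UMI was expected in 44.7%, 33.9% and 31.7% of cells with a Hilpda UMI and in 30.9%, 19.7% and 24.7% of cells without one, higher in 3 of 3 mice. G0s2 showed no common direction by Plin2, at 26.0%, 24.9% and 20.9% of cells with a Plin2 UMI and 23.5%, 24.6% and 27.8% of cells without one. Cells of 1 mouse are not replicates, so these shares were not tested, and UMIs of a thinned cell compete for the same 441 places.

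**Figure D5:**
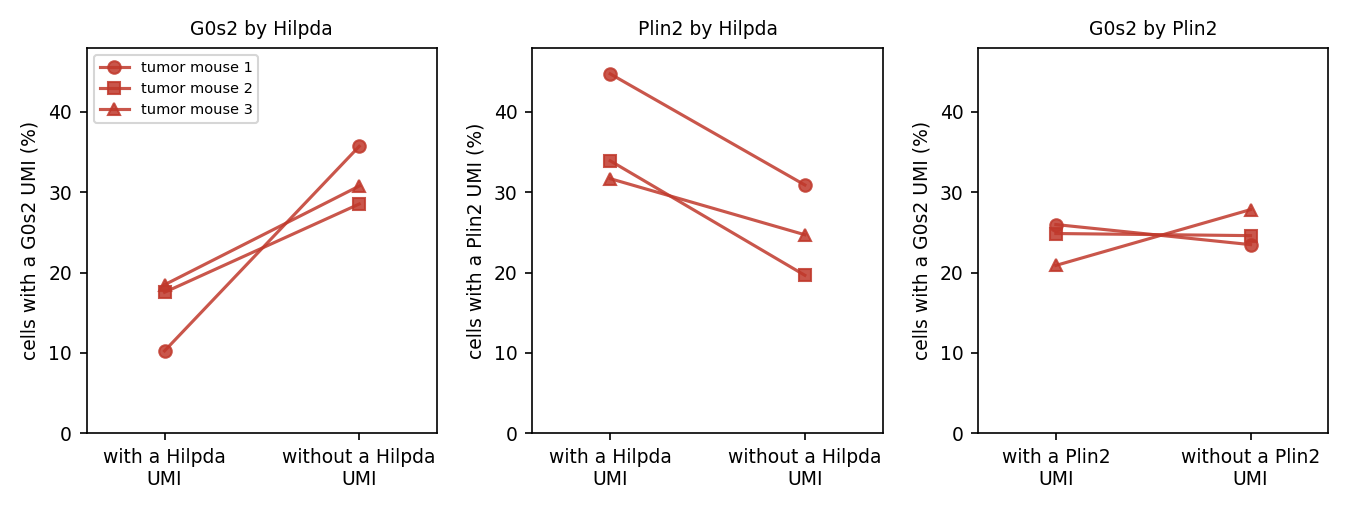
Expected percentage of tumor cells with a UMI of one gene among cells with and without a UMI of another, at 441 UMIs per cell, with 1 line per mouse. The G0s2 lines are lower in cells with a Hilpda UMI in each of the 3 mice and the Plin2 lines are higher.

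Over the 841 tumor cells and 810 genes with at least 100 UMIs, the genes whose scaled log2 levels went most with Hilpda were Tpi1 (Pearson r = 0.34), a glycolytic enzyme, Cstb (0.33), a cathepsin inhibitor, Bnip3 (0.30), a mitophagy receptor, the cathepsin Ctsb (0.30) and the ferritin chain Ftl1 (0.30), against a median of 0.0047 over all 810 genes. Plin2 stood at 0.21, at rank 24, and G0s2 at −0.13, at rank 737. For Plin2 the closest were Hilpda, Aldoa, Fth1, Ctsb and Ftl1. In the 632 cells thinned to equal depth these orders changed. With Hilpda, Tpi1 then stood at 0.23, below Cstb (0.30), Ftl1 (0.27), Bnip3 (0.27) and Ctsb (0.25). With Plin2, Hilpda stood at 0.13, below Fth1 (0.22), Aldoa (0.18) and Ftl1 (0.16), and Ctsb at 0.12. The genes closest to G0s2, looked up after these values had been seen, were Retnlg (0.29), S100a9 and S100a8 (both 0.27), Tmsb4x and S100a11, which are abundant in circulating neutrophils or in the cytoskeleton. These correlations are across cells of 1 library, share its depth and are given as a description.

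Other lipid genes moved in both directions. Over 7 lists of related genes without the 10 members, 56 genes were tested, of which 13 rose and 21 fell (edgeR, adjusted over 3674 genes), beside the 30.2% and 29.8% of all genes. Without tumor mouse 2 the number that rose was 8, and the calls of Plin3, Abhd5, Vps13c, Dgka, Slc25a20 and Sgms1, among those named next, were lost. Calls of Tecr and Dbi were lost without tumor mouse 3, that of Plin3 without blood mouse 3, that of Abhd5 without blood mouse 1 or 3, that of Pla2g15 when any 1 blood mouse was left out, and that of Slc25a20 when any 1 sum other than tumor mouse 3 was left out. Of the 29 genes named, 17 overlap another annotated gene, whose reads could not be told apart without strand.

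Of 10 droplet coat and turnover genes, 3 rose and 2 fell (median log2 fold change 0.07). Without the low-count filter 2 rose and 5 fell of 21, where 1233 rose and 1397 fell of all 16032 genes in that fit. The lysosomal acid lipase gene Lipa rose by 1.30, at 381 ± 131 CPM in tumor, against 139 ± 4.60 CPM in blood (SD, n = 3 mice each). Plin3, another perilipin, rose by 1.24 and Abhd5, the coactivator of ATGL, by 1.12, at 56.4 ± 26.6 CPM in tumor, against 29.1 ± 9.57 CPM in blood. The droplet-associated dehydrogenase gene Hsd17b11 fell by 1.55 and the lipid transporter gene Vps13c by 1.24. Without tumor mouse 2 Abhd5 stood at 0.60 and Vps13c at −0.79, and Plin3 stood at 0.76 without blood mouse 3.

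Of 9 genes of glycerolipid and sterol ester synthesis, 4 rose and 4 fell (median 0.40). Soat1, which esterifies cholesterol for storage, rose by 1.61, at 531 ± 150 CPM in tumor, against 183 ± 8.13 CPM in blood. The related Soat2 fell by 1.56, on 11 UMIs in tumor and 68 in blood. Gpat3, which starts glycerolipid synthesis, rose by 2.21, and Agpat2, which takes the next step, fell by 2.26 on 6 and 61 UMIs. The diacylglycerol kinase genes also parted, Dgkz rising by 2.24 and Dgka falling by 1.95. Without tumor mouse 2 Agpat2 stood at −3.18 and Dgka at −0.84, and without tumor mouse 3 Dgka stood at −2.62.

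Of 10 genes of fatty acid oxidation, 1 rose and 5 fell (median −0.78). The carnitine carrier gene Slc25a20 rose by 1.10, on 25 UMIs in tumor and 24 in blood. Cpt1a, the gate for long-chain fatty acids into mitochondria, fell by 2.17, on 6 UMIs in tumor, all of mouse 2, and 57 in blood. The peroxisomal transporter gene Abcd2 fell by 3.51, at 4.32 ± 7.49 CPM in tumor, against 105 ± 18.3 CPM in blood, with its 5 tumor UMIs all in mouse 2, and the peroxisomal thiolase gene Acaa1a fell by 1.82. Of 4 genes of fatty acid synthesis, Hacd4 fell by 2.55 and Tecr by 1.07, both of the elongation cycle (median of the list −0.83), and Elovl1 and Hacd2, at −0.54 and −0.58, did not pass. Without tumor mouse 2 Tecr stood at −1.89, and Cpt1a and Abcd2 were at 0 in tumor, with fitted values of −6.73 and −7.82 that depend on the prior count.

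Of 7 genes of uptake, binding and acyl-CoA, 1 rose and 2 fell (median −0.58). Without the low-count filter the balance turned, with 6 that rose and 4 that fell of 25, where 1233 rose and 1397 fell of all 16032 genes. Some list genes that the filter removed are named here after their values had been seen. The scavenger receptor gene Msr1 was counted with 28 UMIs in tumor, against 1 in blood, and the fatty acid carrier gene Fabp4 with 15 in tumor, against 0 in blood. Slc27a4, which encodes a fatty acid transport protein, was counted with 24 UMIs in tumor, against 10 in blood, and the lipoprotein receptor gene Lrp1 with 12 in tumor, against 4 in blood. Other removed genes of this list went the other way. Ffar2 had 2 UMIs in tumor, against 36 in blood, Acot7 had 0, against 16, and Acss2 had 1, against 12. For none of these genes was the part in cells with macrophage or MHC class II markers measured. The oxidised LDL receptor gene Olr1 had 80 UMIs in tumor and 2 in blood, both in mouse 3, a ratio of 80.1 with a counting interval of 21.5 to 673 (edgeR adjusted p = 1.21e-07). The acyl-CoA binding protein genes Acbd5 and Dbi fell by 1.24 and 0.95, and Dbi stood at −1.79 without tumor mouse 2. Of 7 regulators 2 rose and 2 fell (median −0.26): Hif1a, the hypoxia-inducible factor, rose by 1.80 and the sterol sensor gene Insig2 by 2.88, on 23 and 6 UMIs, while Mlx, which encodes a partner of glucose-sensing factors, fell by 1.70 (−3.32 without tumor mouse 2) and the corepressor gene Ncor1 by 0.93. Of 9 phospholipid genes 2 rose and 4 fell (median 0.14). Sgms2, a sphingomyelin synthase, rose by 3.09, at 468 ± 25.7 CPM in tumor, against 55.2 ± 16.1 CPM in blood, while its relative Sgms1 fell by 1.72. The lysosomal phospholipase gene Pla2g15 rose by 1.20, and the acyltransferase genes Lpcat2 and Mboat7 fell by 1.19 and 1.09, and Lpcat2 stood at −0.79 without tumor mouse 2. Without the low-count filter the medians of 5 of the 7 lists changed sign, all but those of glycerolipid synthesis and oxidation.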

How the data were processed

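The authors deposited raw counts of UMIs per gene and barcode and raw hashtag counts per barcode, 10000 RNA barcodes per tissue with 15901 genes in tumor and 15236 in blood. A gene listed in 1 file was given 0 in the other. The submitters' processing notes name STAR and the build mm10. Not given in the sources used here are the counter, its annotation, the strand setting and the barcode filter.

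The 10 genes, the lists and the tests were chosen with earlier results of these data known. Barcodes with at least 200 genes and at most 15% mitochondrial UMIs were kept, 947 in tumor and 1534 in blood. A barcode went to a mouse when it had at least 10 hashtag counts, at least 70% of them from 1 hashtag, which left 106 tumor and 159 blood barcodes unassigned. No doublet caller was run beyond this, and the labels do not say that a hashtag number marks the same mouse in both tissues. Deviations of same-numbered sums correlated at 0.02, 0.02 and −0.03 over 3400 genes, so no pairing was used.

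UMIs were summed per mouse and tissue and tested with edgeR 4.0.16 (R 4.3.3; default low-count filter, TMM scaling, tissue as the only term, Benjamini-Hochberg over all genes tested). Fold changes are tumor over blood. Each SE printed with them was derived as the absolute log2 fold change over the square root of the quasi-likelihood F. The DESeq2 Wald test gave a wider SE for every tested member, among them 1.19 for Hilpda, 0.64 for G0s2 and 0.27 for Plin2. Intervals are exact and two-sided, at 95%. Floors are a fixed 3 counts, which is lower than the exact upper limit for a count of 0. The 504-fold bound of Hilpda would be smaller with that limit. Intervals and floors cover counting error only. Shares are expected values over all draws that thin a cell to 441 UMIs (percentile 25 of the tumor cells), which left out 209 tumor and 254 blood cells; for co-detection this replaced 1 seeded draw after it had been seen. Named genes were all 10 members, the 3 largest changes in each direction of each list among those past the threshold, and the 5 genes most correlated with Hilpda and with Plin2. On simulated counts (3404 genes) edgeR found 48.8% of genes set to differ 2-fold (41 of 84). Of those set to differ 4-fold it found 96.9% (93 of 96), and it passed 0.248% of the unaltered genes (8 of 3224). Most genes in that run were thus unaltered, whereas in the data 30.2% of all genes tested rose and 29.8% fell. How these rates change with so large a share of changed genes was not tested. Alternatives were DESeq2 1.42.0, its size factors, library totals, no filter, a replicate block, HTODemux of Seurat 5.3.0, other hashtag, mitochondrial and gene limits, removal of marker cells or of hemoglobin genes, and leaving out each sum. Promoter windows came from RefSeq (GRCm38.p6), gene positions from GENCODE on mm10.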

Additional observations from a re-analysis of the deposited data

Results flagged for a closer look

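Barcodes given to no mouse entered no comparison, and the 106 of them in tumor, with 82783 UMIs, were searched for the 10 genes. Levels of 4 storage genes there were above those of the unassigned blood barcodes, which is why they are listed. Hilpda stood there at 2054 CPM (95% Poisson interval 1756 to 2387), against 0 CPM in the 159 unassigned blood barcodes (a count of 0 allows up to 29.6 CPM). Plin2 stood at 1039 CPM (831 to 1283) in tumor and 104 CPM in blood, G0s2 at 990.5 CPM (788 to 1230) and 56.1 CPM, and Dgat1 at 145 CPM (74.9 to 253) and 24.1 CPM. Fabp5 was at 181 CPM (101 to 299) in the unassigned tumor barcodes, against 64.6 CPM (45.5 to 89.0) in the assigned tumor cells. These intervals cover counting error only. The number of doublets among the unassigned barcodes was not tested.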

How the results depend on the processing

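Hilpda, Plin2, G0s2, Dgat1 and Dgat2 kept their direction and passed in every alternative run, and Acsl4 in each that tested it; the filter dropped Acsl4 under HTODemux assignment and under the 5% mitochondrial limit. Their log2 fold changes ran from 9.93 to 11.38, 3.39 to 3.82, 4.18 to 4.81, 1.03 to 1.72, 0.97 to 1.80 and 2.07 to 2.70. With each sum left out in turn they ran from 10.02 to 12.06, 3.47 to 3.85, 4.20 to 5.61, 1.27 to 1.72, 0.79 to 1.34 and 1.88 to 2.60. Pnpla2 never passed.

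Fabp5 did not pass with DESeq2 (−0.79, adjusted p = 0.102), HTODemux (−0.39), at least 90% of hashtag counts from 1 hashtag (−0.80) or the 5% mitochondrial limit (−0.68), and leaving out each sum gave −0.99 to −0.65. Acsl1 stood at −0.18 under the 90% rule. Without thinning the Acsl1 share was 0.304 points lower in tumor (difference −0.304), the Dgat2 shares overlapped between the tissues (exact permutation p = 0.2) and the Pnpla2 shares did not (4.68% to 6.60% in tumor, 7.11% to 8.81% in blood, p = 0.1). The Cd36 share difference was −0.0227 points without marker cells and ran from −0.0949 to 0.195 with each sum left out. The 5% mitochondrial limit left 740 genes higher and 674 lower, and 8 higher list genes; the last count ran from 8 (without tumor mouse 2) to 18 with each sum left out, and list genes lower numbered 13 under the 90% rule. The storage ratio in tumor was 22.8 with HTODemux, 22.0 without marker cells and 11.4 without Hilpda. Causes were not tested, except that stricter limits leave fewer cells and genes. With the replicate number as a block, 993 genes were higher and 980 lower, Fabp5 did not pass (−0.65, adjusted p = 0.0845) and no other member's call changed. Without a low-count filter 1233 and 1397 of 16032 genes passed. Of the 29 list genes named, 20 kept their call in every alternative that tested them and none changed sign. Depth limits Cd36, with 7 UMIs in tumor and 2 in blood, and the shares of Acsl1 and Acsl4.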
